A study of Rattus norvegicus with 18 samples.

Results

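Rat cerebral cortex was compared between 3 embryonic samples, taken at E10, E13 and E17, and 3 late postnatal samples, taken at P7, P14 and P28, by counting small RNA reads. These 6 tissue samples were chosen by stage out of 9 in the series, and 3 samples of P0 and P3 stood outside the comparison. All animals were Sprague Dawley rats with no treatment. The E10 and E13 samples are labelled forebrain, and those of E17 and after birth somatosensory cortex. By the methods of the study, the early samples were whole cortex and the later ones came from the dorsal lateral region. Stage and tissue therefore cannot be told apart for E10 and E13, and E17 was the only embryonic sample labelled cortex. Each stage of the comparison had 1 tissue sample, sequenced in 2 technical runs that were summed here, so the p-values measure the spread among samples of different stages.

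MicroRNAs (miRNAs) are short RNAs that guide a silencing complex to messenger RNAs, mostly by pairing of the bases called the seed, positions 2 to 8 from the 5′ end. miRNAs with the same seed can bind many of the same targets and are counted as a family. In the developing cortex, dividing progenitors give way to neurons, which then form synapses, while oligodendrocytes begin to make myelin, and each of these cell types has miRNAs that are typical of it. In bulk tissue, fewer cells of a type and less RNA per cell cannot be told apart.

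The miRNAs described are the 112 that are named in the real-time PCR primer list or the list of nucleotide changes of the study and could be tied to 1 mature sequence. Of these, 30 had a primer and 99 were in the list of changes. They were counted together with all other rat miRNAs of RefSeq and the candidate sequences of the study, 793 distinct sequences in all, of which 524 had at least 10 reads in at least 3 samples and were tested. Of the 112 members, 110 passed this minimum. The other two, miR-196a-5p and miR-196c-5p, which belong to the Hox gene clusters, had 0 to 10 reads in each sample.

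The sequences below carry the main differences and are given as in RefSeq (GRCr8), 5′ to 3′, with the seed in capitals. The first 9 share a seed in groups of 3 and fell from embryonic to late postnatal samples.

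rno-miR-17-5p: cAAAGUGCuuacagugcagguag
rno-miR-20a-5p: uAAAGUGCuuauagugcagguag
rno-miR-93-5p: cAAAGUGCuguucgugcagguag
rno-miR-92a-3p: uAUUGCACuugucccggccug
rno-miR-25-3p: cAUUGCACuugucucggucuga
rno-miR-363-3p: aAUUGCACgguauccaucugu
rno-miR-130a-3p: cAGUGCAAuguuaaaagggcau
rno-miR-130b-3p: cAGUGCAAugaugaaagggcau
rno-miR-301b-3p: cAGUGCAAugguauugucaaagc

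The next 9 include the miR-29 family and 2 further pairs that share a seed, and they rose.

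rno-miR-29a-3p: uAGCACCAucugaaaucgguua
rno-miR-29b-3p: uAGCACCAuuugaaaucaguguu
rno-miR-29c-3p: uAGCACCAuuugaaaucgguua
rno-miR-221-3p: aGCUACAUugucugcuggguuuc
rno-miR-222-3p: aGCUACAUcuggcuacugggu
rno-miR-132-3p: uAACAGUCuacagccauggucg
rno-miR-212-3p: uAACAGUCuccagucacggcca
rno-miR-128-3p: uCACAGUGaaccggucucuuu
rno-miR-138-5p: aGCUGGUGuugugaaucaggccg

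Total clean reads ranged from 19910829 at E13 to 27464584 at E10, and levels are given as RPM, the reads scaled to the total clean reads of a sample. The TMM factor was 1.48 at E10 and 1.32 at E13, which are labelled forebrain, and 0.688 to 0.959 in the samples labelled somatosensory cortex. The E10 sample stood apart in other respects. Several markers of blood and ciliated cells were highest in it. Its runs also differed in the 3′ ends of miRNA reads, since 46.9% of the reads of the members with the mature 5′ end were shortened at the 3′ end in run 1 and 5.04% in run 2. The same share lay between 35.1% and 56.5% in the other 10 libraries.

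A change was called when edgeR's quasi-likelihood test gave an adjusted p under 0.05 over all 524 features and the sign was the same with run 1 alone and with run 2 alone. Of all features, 42.2% were called, 16.6% as higher and 25.6% as lower in late postnatal samples. Of the 110 members tested, 52 (47.3%) were called, 25 higher and 27 lower, so the share called was near that of all features. The 3 embryonic and 3 late postnatal values did not overlap for 65 of the 110 members, where 52.9% of all features did not overlap. The median log2 fold, late postnatal minus embryonic, was −0.24 over the members tested and −0.52 over all features. With the total clean reads as the only scaling, the median of all features lay 0.30 lower, and 49 features were called higher and 140 lower, so that 25.9% of the calls were higher in place of 39.4%. The number of calls over all features, 221, fell to 70 higher and 68 lower without P7, and was 89 without P14 and 113 without P28. It was 209 without E10, with 94 higher and 115 lower. Of the 52 called members, 25 passed in every fit that left out 1 sample and in which they were tested. Without P14, 25 of the 52 did not pass.

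E17 lay beyond all 3 late postnatal samples, in the direction of the change, for 51 of the 52 called members. The same held for 217 of the 221 called features, and E17 was itself among the samples behind the calls. The exception among the members was miR-199a-5p, a miRNA of mesenchymal cells. A fit of E17 alone against P7, P14 and P28 assumed that E17 varied like the other samples. In it, 50 of the 51 called members that could be tested had the same sign. Since E17 also took part in the calls, this agreement was partly fixed in advance.

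**Figure D1:**
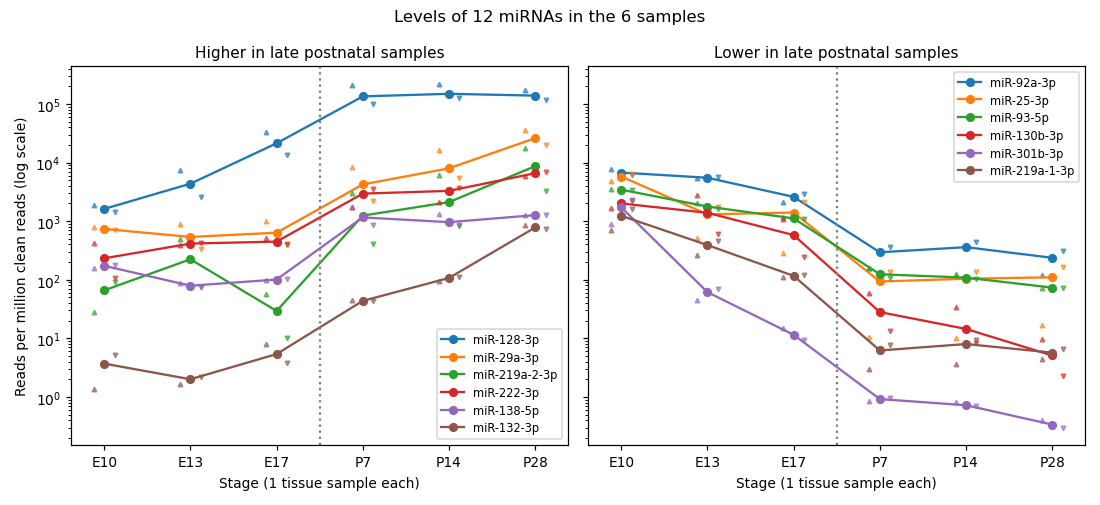
Levels in RPM (log scale) of 6 miRNAs that were higher and 6 that were lower in late postnatal samples, for E10, E13 and E17 to the left of the dotted line and P7, P14 and P28 to its right. Circles joined by lines give the summed runs, and small upward and downward triangles give run 1 and run 2. In each of the 12 miRNAs the 3 late postnatal circles lie on 1 side of the 3 embryonic circles. For miR-301b-3p the fall began within the embryonic samples, from 1721 at E10 to 11.5 at E17.

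The miRNAs of the miR-17-92 cluster and its paralogs, known for their role in the proliferation of progenitor cells, all fell. All 11 listed members were called lower, with a median log2 fold of −4.12 against −0.52 over all features, and none of the 11 overlapped between the groups. Of all features, 25.6% were called lower and 52.9% did not overlap. Their summed level was 20163 RPM at E10, 10498 at E13 and 6500.1 at E17, and 697 at P7, 716 at P14 and 518 at P28.

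miR-92a-3p, the last miRNA of that cluster, had 6740.3, 5496 and 2596 RPM at E10, E13 and E17, and 294, 360.0 and 237 at P7, P14 and P28. Even the lowest embryonic value was far above the highest late postnatal one. It was 12.7-fold higher in embryonic samples (log2 fold −3.67 ± 0.44 SE, n = 3 against 3 samples, edgeR adjusted p = 0.00422). miR-17-5p, whose sequence in RefSeq also comes from the miR-106a locus, had 1203, 791 and 586 RPM in embryonic and 74.6, 56.5 and 37.4 RPM in late postnatal samples. Its levels fell in stage order in both groups, which did not overlap (log2 fold −3.58 ± 0.51 SE, edgeR adjusted p = 0.00422). miR-20a-5p of the same cluster had 566, 188 and 166 RPM before birth and 15.0, 11.7 and 12.2 RPM in late postnatal samples (log2 fold −4.14 ± 0.56 SE, edgeR adjusted p = 0.00422). miR-92a-1-5p, the opposite arm of one miR-92a hairpin, is at chr15:98588565-98588587 (GRCr8, plus strand), downstream of the mature miR-20a-5p at chr15:98588318-98588340, and fell with it (log2 fold −5.10 ± 0.88 SE, edgeR adjusted p = 0.00653; −4.04 without E10 and −4.35 without P28). It had 457, 84.0 and 54.1 RPM in embryonic samples and 5.57, 4.35 and 1.81 RPM later.

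The paralogous cluster miR-106b, miR-93 and miR-25 is at chr12:22156652-22157123 (GRCr8, minus strand) within the span of Mcm7, which codes for a subunit of the replicative helicase. miR-93-5p had 3443, 1774 and 1114 RPM at the embryonic stages and 124.2, 109 and 73.6 RPM at the late postnatal ones. miR-25-3p had 5773, 1307 and 1401 RPM and then 93.4, 104 and 110.3 RPM. Both pairs of groups were well separated, and the log2 folds were −3.95 ± 0.51 SE and −4.35 ± 0.63 SE (edgeR adjusted p = 0.00422 for each). miR-25-3p differed between the runs, with a log2 fold of −6.70 in run 1 and −3.93 in run 2, and was −3.76 without E10. miR-106b-5p fell by 3.52 on the log2 scale (SE 0.57, edgeR adjusted p = 0.00582). The X-linked paralog miR-363-3p had 573, 299.9 and 130.2 RPM in embryonic samples and 10.8, 3.57 and 1.09 RPM in late postnatal samples, in descending stage order throughout (log2 fold −5.50 ± 0.97 SE, edgeR adjusted p = 0.00653; −6.38 without P7 and −4.72 without P28). miR-92b-3p, which has the seed of miR-92a from another locus, had 5293, 1931 and 1040.0 RPM and then 185, 284 and 359 RPM, with no overlap (log2 fold −2.85 ± 0.55 SE, edgeR adjusted p = 0.00823). All 5 tested miRNAs with the seed of miR-17 and all 5 with the seed of miR-92a were called lower, against 25.6% of all features.

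The miR-130 and miR-301 family, with a seed of its own, fell as well, and all 3 members with a sequence were called lower, against 25.6% of all features (median log2 fold −5.90). miR-130b-3p had 2002, 1389 and 578 RPM in embryonic samples and 28.1, 14.5 and 5.11 RPM in late postnatal samples, without overlap, so the embryonic level was 59.8-fold higher (log2 fold −5.90 ± 0.80 SE, edgeR adjusted p = 0.00422; −5.19 without P28). miR-301b-3p at chr11:97384077-97384099 lies just upstream of miR-130b-3p at chr11:97384430-97384451 (GRCr8, plus strand) and had 1721, 61.5 and 11.5 RPM and then 0.921, 0.724 and 0.338 RPM. It had the most negative log2 fold of the members (−9.11 ± 1.89 SE, edgeR adjusted p = 0.00997), which was −5.45 without E10, −9.79 without E13 and −8.29 without P28. miR-130a-3p on chromosome 3 had 2639, 939 and 716 RPM and then 199.5, 131 and 111 RPM (log2 fold −2.84 ± 0.55 SE, edgeR adjusted p = 0.00823). Each of the 3 was highest at E10 and lowest at P28.

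Other members with a primer fell less or with less support. miR-135a-3p had 885, 1609 and 498 RPM before birth and 90.2, 162 and 109 RPM later, without overlap (log2 fold −2.69 ± 0.49 SE, edgeR adjusted p = 0.00663). miR-3559-5p, in the span of Zdhhc15 on the X chromosome, had 2431, 3842 and 1346 RPM and then 538, 507 and 248 RPM (log2 fold −2.17 ± 0.51 SE, edgeR adjusted p = 0.0146), and its adjusted p was 0.0576, 0.0772 and 0.0768 without P7, P14 and P28. miR-708-5p, in the span of Tenm4, was highest at E17 with 1887 RPM, against 1258 at E10 and 915 at E13, and had 316, 191 and 239 RPM later. Its log2 fold was −2.36 ± 0.65 SE (edgeR adjusted p = 0.0245) and −1.32 without E17, where the adjusted p was 0.0555; it was 0.064, 0.113 and 0.0924 without P7, P14 and P28. miR-672-5p, in the span of Nexmif, had 359, 1378 and 1001 RPM and then 241, 239 and 112 RPM. The groups did not overlap, but the call was close to the threshold (log2 fold −2.06 ± 0.71 SE, edgeR adjusted p = 0.048) and was lost without any sample other than E10, with adjusted p-values between 0.0869 without E13 and 0.189 without P28.

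miR-296-3p and miR-298-5p, neighbours in an imprinted region of chromosome 3, were not called. miR-296-3p had 1949, 1595 and 1144 RPM and then 459, 302 and 11.8 RPM, so the groups did not overlap in summed runs, but P28 lay far below P7 and P14 (log2 fold −2.26 ± 1.04 SE, edgeR adjusted p = 0.107; −1.42 without P28). The runs differed at E10, with 4514 RPM in run 1 and 224 in run 2, which was below the 583 and 357 RPM of P7 and P14 in run 2. miR-298-5p overlapped, with 5987, 3321 and 1699 RPM before birth and 1737, 1853 and 355 RPM later (edgeR adjusted p = 0.211). Both were lowest at P28.

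miR-16-5p, a family that restrains the cell cycle, had 1544, 1501 and 1906 RPM in embryonic and 476, 353 and 472 RPM in late postnatal samples. It was called lower (log2 fold −1.77 ± 0.53 SE, edgeR adjusted p = 0.032), but its adjusted p was 0.104, 0.105, 0.159 and 0.112 without E17, P7, P14 and P28, with a log2 fold of −1.05 without E17. With the replicate block, fitted over the 12 libraries with the sample as a correlated block, the call was also lost (log2 fold −1.32, adjusted p = 0.0555). The 5 tested miRNAs with its seed did not move together, an observation made after the values were seen.

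rno-miR-15b-5p: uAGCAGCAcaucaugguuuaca
rno-miR-16-5p: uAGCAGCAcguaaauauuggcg
rno-miR-322-5p: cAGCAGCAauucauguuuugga
rno-miR-195-5p: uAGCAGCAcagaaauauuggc
rno-miR-497-5p: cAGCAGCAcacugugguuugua

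miR-15b-5p had 369.4, 260.1 and 192 RPM in embryonic and 20.3, 25.2 and 25.7 RPM in late postnatal samples (log2 fold −3.21 ± 0.43 SE, edgeR adjusted p = 0.00422), and miR-322-5p also fell (log2 fold −1.92 ± 0.54 SE, edgeR adjusted p = 0.0248). miR-195-5p had 6.95, 9.64 and 26.4 RPM and then 109, 90.8 and 157 RPM (log2 fold 2.97 ± 0.85 SE, edgeR adjusted p = 0.026). miR-497-5p, from the same locus as miR-195, rose too (log2 fold 2.90 ± 0.65 SE, edgeR adjusted p = 0.0128). Thus 3 miRNAs with this seed were called lower and 2 higher, with no overlap between the groups in any of the 5. Of all features, 25.6% were called lower, 16.6% were called higher and 52.9% did not overlap. The call of miR-195-5p was lost without E13, P14 or P28 (adjusted p = 0.0677, 0.0519 and 0.059), and its log2 fold was 4.55 without E17.

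**Figure D2:**
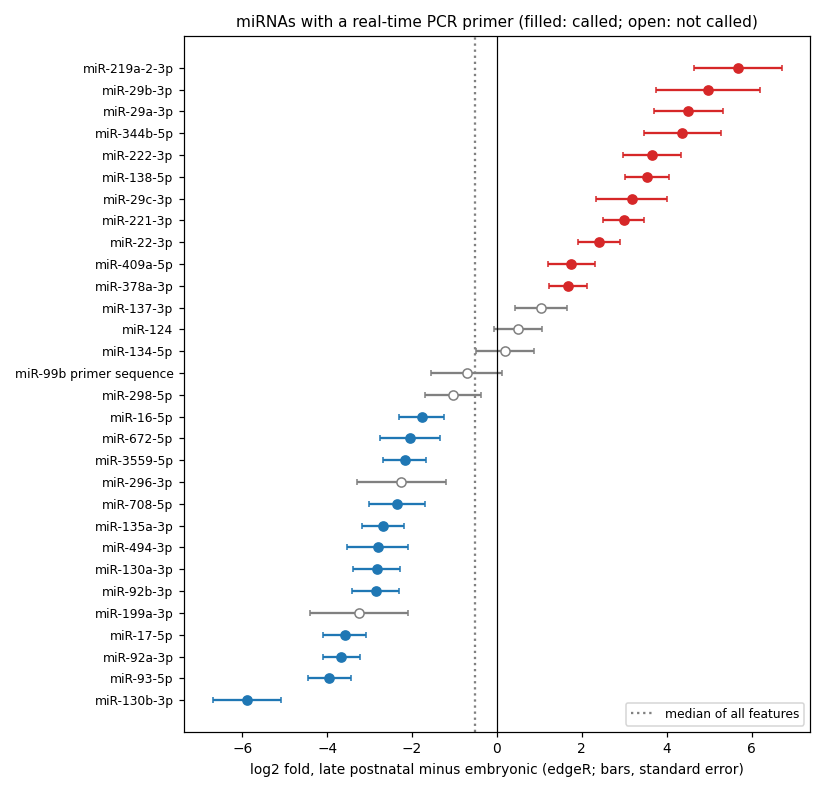
log2 fold (late postnatal minus embryonic, edgeR) of the 30 miRNAs with a real-time PCR primer, with bars for the standard error. Filled circles mark the 11 called higher (red) and the 12 called lower (blue), open grey circles the 7 not called, and the dotted line the median of all features at −0.52. The share called was 76.7%, where 42.2% of all features were called. The study chose miRNAs for PCR by their developmental profile in the same sequencing, so this share was not independent of the data. The values run from −5.90 for miR-130b-3p to 5.67 for miR-219a-2-3p.

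Of the named miRNAs that rose, miR-128-3p had the highest levels. This miRNA, which is enriched in brain and acts on neuronal excitability, had 1616, 4353 and 21302 RPM at E10, E13 and E17 and 134305, 148662 and 138467 RPM at P7, P14 and P28. The 3 late postnatal values lay close together, while the embryonic values rose at each stage. The log2 fold was 3.72 ± 1.16 SE (edgeR adjusted p = 0.0349), 13.2-fold higher in late postnatal samples. It was 6.20 without E17, and the adjusted p was 0.0797, 0.064, 0.0738 and 0.0704 without E13, P7, P14 and P28. miR-138-5p, known to limit the growth of dendritic spines, had 173, 79.2 and 100.9 RPM and then 1158, 960.3 and 1267 RPM (log2 fold 3.54 ± 0.52 SE, edgeR adjusted p = 0.00422). It had no stage order within either group.

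miR-132 and miR-212, which respond to neuronal activity through CREB, gave the 3 largest log2 folds of the called miRNAs with a mean above 100 RPM in the higher group, in miR-132-5p, miR-132-3p and miR-212-5p. They share a hairpin cluster at chr10:60521771-60522112 (GRCr8, plus strand) and a 3′ arm seed. miR-132-3p had 3.71, 2.01 and 5.40 RPM in embryonic samples and 43.7, 107 and 779.7 RPM at P7, P14 and P28. The late postnatal values rose at each stage, and the log2 fold was 6.42 ± 1.33 SE (edgeR adjusted p = 0.00997), or 4.71 without P28. The opposite arm, miR-132-5p, had 0.801, 0.301 and 1.87 RPM and then 30.1, 79.3 and 374 RPM (log2 fold 7.27 ± 1.41 SE, edgeR adjusted p = 0.00823; 6.04 without P28). miR-212-5p had 3.86, 2.71 and 4.01 RPM and then 37.0, 161 and 533 RPM (log2 fold 6.24 ± 1.09 SE, edgeR adjusted p = 0.00653), and miR-212-3p rose by a log2 fold of 6.84 ± 1.16 SE (edgeR adjusted p = 0.00639). In all 4 arms the groups did not overlap, and P28 was the highest sample. Without E17 or without P7 the log2 folds of the 4 arms lay between 6.99 and 8.997, and without P28 between 4.71 and 6.04. With E17 as the only embryonic sample none of the 4 passed (log2 folds 5.40 to 6.10, edgeR adjusted p between 0.0554 and 0.0827).

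Of the 12 miRNAs listed as neuronal, 5 were called higher, none lower, and 7 were not called, with a median log2 fold of 0.97. The share called was 41.7%, where 16.6% of all features were called higher and 42.2% in either direction. miR-139-5p, in the span of Pde2a, was among those that rose (log2 fold 2.80 ± 0.59 SE, edgeR adjusted p = 0.0101; 3.52 without E17). miR-124, which drives neuronal differentiation and was counted with its primer sequence, was not called. It had 21628, 16418 and 27874 RPM in embryonic samples and 34690.0, 23595 and 26582 RPM in late postnatal samples, so the groups overlapped (log2 fold 0.49 ± 0.57 SE, edgeR adjusted p = 0.494), although without E17 it passed (log2 fold 1.37, adjusted p = 0.0208). Nor was miR-137-3p, a regulator of neuronal maturation, called: it had 38.2, 88.8 and 92.2 RPM and then 155, 144.4 and 119.7 RPM, without overlap (log2 fold 1.04 ± 0.62 SE, edgeR adjusted p = 0.191; 1.80 and 0.0494 without E17). With the replicate block its log2 fold was 1.53 and passed (adjusted p = 0.0276). miR-134-5p, a regulator of dendritic spines, had 262, 368 and 66.6 RPM and then 246, 262 and 55.8 RPM (edgeR adjusted p = 0.837). E17 and P28 were its lowest samples.

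The miR-29 family, which targets collagens and DNA methyltransferases and rises as neurons mature, rose in all 3 members, where 16.6% of all features were called higher (median log2 fold 4.51). With E17 as the only embryonic sample the adjusted p of the 3 was 0.0522 to 0.0879. miR-29a-3p had 736, 538 and 635 RPM in embryonic samples and 4234, 7963 and 26049 RPM at P7, P14 and P28, rising at each late stage (log2 fold 4.51 ± 0.81 SE, edgeR adjusted p = 0.00663; 5.10 without E17, 5.16 without P7 and 3.77 without P28). miR-29b-3p had 38.96, 7.43 and 7.93 RPM and then 82.0, 95.7 and 1081 RPM. P28 lay far above P7 and P14, and the log2 fold of 4.98 ± 1.23 SE (edgeR adjusted p = 0.0172) was 3.16 without P28 and 5.71 to 5.78 without E10, P7 or P14. miR-29c-3p had 220.1, 49.2 and 34.6 RPM and then 254, 391 and 1321 RPM, so that E10 came close to P7 (log2 fold 3.18 ± 0.84 SE, edgeR adjusted p = 0.0212; 2.58 without P28 and 3.78 to 3.999 without E10, P7 or P14). With total clean reads alone its adjusted p was 0.0504. Without E13 the adjusted p-values of miR-29b-3p and miR-29c-3p were 0.0543 and 0.0659. In run 2, E10 lay above P7 for both, with 45.2 against 29.4 RPM for miR-29b-3p and 257 against 243 RPM for miR-29c-3p.

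miR-221-3p and miR-222-3p, a pair at chrX:6022682-6023268 (GRCr8, plus strand) that targets the cell cycle inhibitor p27, both rose. miR-221-3p had 948, 483 and 479 RPM and then 2740.1, 4406 and 5158 RPM (log2 fold 2.98 ± 0.49 SE, edgeR adjusted p = 0.00582). miR-222-3p had 232.4, 414 and 448 RPM and then 2951, 3283 and 6573 RPM (log2 fold 3.65 ± 0.68 SE, edgeR adjusted p = 0.00704; 4.40 without E17). In summed runs neither pair of groups overlapped, and both were highest at P28. In run 1 miR-221-3p had 1333 RPM at E10, above the 1053 and 1116 RPM of P7 and P14, and with run 1 alone it was not called (log2 fold 1.74, edgeR adjusted p = 0.122).

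miR-219a-2-3p, from a hairpin in the span of Cercam whose other arm promotes the maturation of oligodendrocytes, had 66.0, 224 and 29.4 RPM in embryonic and 1244, 2112 and 8669 RPM in late postnatal samples. It rose by the largest log2 fold of the miRNAs with a primer (5.67 ± 1.04 SE, edgeR adjusted p = 0.00663; 6.55 without E13 and 4.65 without P28). The runs differed in level, with 17548 RPM in run 1 and 3316 RPM in run 2 at P28. miR-219a-1-3p, the 3′ arm of the second miR-219a hairpin on chromosome 20, moved the other way, with 1235, 391 and 117 RPM and then 6.22, 8.02 and 5.72 RPM (log2 fold −5.88 ± 0.77 SE, edgeR adjusted p = 0.00422; −5.02 without E10). The 5′ arm miR-219a-5p overlapped between the groups (edgeR adjusted p = 0.186), with 1145 RPM at E10 and 22.02 to 132.07 RPM elsewhere.

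rno-miR-219a-2-3p: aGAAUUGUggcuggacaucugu
rno-miR-219a-1-3p: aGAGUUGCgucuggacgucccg

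Their 3′ arms do not share a seed. Among the oligodendrocyte markers, miR-338-3p was also called higher, with 33.7, 6.63 and 10.2 RPM before birth and 32.2, 42.6 and 149.7 RPM later, but P7 lay below E10 (log2 fold 2.52 ± 0.80 SE, edgeR adjusted p = 0.0356; 0.0936 without E13 and 0.0663 without P28, where the log2 fold was 1.93; 3.20 without P7 and 3.12 without P14).

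Rises were also called for miR-22-3p, miR-378a-3p and miR-344b-5p, each with a primer. miR-22-3p had 124.05, 58.4 and 42.5 RPM before birth and 215, 264 and 429.9 RPM later (log2 fold 2.40 ± 0.49 SE, edgeR adjusted p = 0.00997). miR-378a-3p, in the span of the metabolic regulator Ppargc1b, had 791, 549.8 and 328 RPM and then 820.4, 1511 and 1846 RPM, so E10 and P7 were close (log2 fold 1.68 ± 0.45 SE, edgeR adjusted p = 0.023). Its adjusted p was 0.0586 without E13, 0.0562 without P14 and 0.0933 with total clean reads alone. miR-344b-5p, which has 3 loci in RefSeq, rose from 2.99, 9.04 and 11.5 RPM to 71.4, 137.02 and 275 RPM (log2 fold 4.37 ± 0.91 SE, edgeR adjusted p = 0.00997; 5.36 without E17).

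Of miRNAs without a primer, the largest rises above 100 RPM also included miR-490-3p, miR-206-3p, miR-1224 and miR-664-2-5p. miR-490-3p, in the span of the muscarinic receptor gene Chrm2, had 5.24, 15.7 and 10.4 RPM before birth and 117, 104 and 131 RPM later (log2 fold 3.68 ± 0.64 SE, edgeR adjusted p = 0.00653). Its late postnatal level above 100 RPM came from run 1, with 312 to 374 RPM against 17.9 to 21.9 RPM in run 2. miR-1224 had 44.8, 28.5 and 25.7 RPM and then 243, 499 and 231.6 RPM (log2 fold 3.58 ± 0.53 SE, edgeR adjusted p = 0.00422). miR-664-2-5p had 43.4, 46.5 and 43.4 RPM and then 269, 478 and 646 RPM, with nearly equal embryonic values (log2 fold 3.58 ± 0.56 SE, edgeR adjusted p = 0.00539).

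The largest falls included 2 miRNAs that were high mainly at E10. miR-449a-5p, a miRNA of ciliated cells, had 2477 RPM at E10, 37.97 at E13 and 11.3 at E17, and 10.2, 7.49 and 1.24 RPM later. The E10 level was 206.2 RPM in run 1 and 4004 RPM in run 2, and the log2 fold was −4.00 in run 1 and −6.19 in run 2. In summed runs its log2 fold of −6.33 ± 1.96 SE (edgeR adjusted p = 0.0343) was −1.70 without E10, where the adjusted p was 0.12, and the call was also lost without P7, P14 or P28 (0.0737, 0.0963 and 0.0963). The log2 fold was −7.05 without E13 and −5.35 without P28. miR-1298, in the span of the serotonin receptor gene Htr2c on the X chromosome, had 2606, 467 and 34.8 RPM and then 19.3, 20.2 and 19.7 RPM. Its log2 fold was −5.05 ± 1.19 SE (edgeR adjusted p = 0.015), −3.25 without E10, and its adjusted p was 0.0562 without P14 and 0.0532 without P28. With E17 as the only embryonic sample neither miR-449a-5p nor miR-1298 passed, with a log2 fold of −1.21 for both (edgeR adjusted p = 0.354 and 0.058).

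The let-7 family, which is known for promoting differentiation, had no called member among the 8 listed, where 42.2% of all features were called. Their edgeR adjusted p ranged from 0.213 to 0.944. let-7g-5p, which was not on the list, had 25403, 8249 and 13247 RPM and then 15915, 20093 and 19481 RPM and was also not called (log2 fold 0.52 ± 0.51 SE, edgeR adjusted p = 0.419). The summed level of the 8 was 260656 RPM at E10, 315492 at E13 and 566539 at E17, and 468592, 453473 and 431291 RPM at P7, P14 and P28. The members differed in pattern. let-7b-5p had 6734 and 11944 RPM at E10 and E13, 66833 at E17, and 67780.0, 62532 and 44594 RPM later. Its E17 value was within the late postnatal range, and without E17 its log2 fold of 0.81 was 3.33 (edgeR adjusted p = 0.0025). let-7c, let-7d, let-7f and let-7i also passed without E17, with log2 folds of 1.35 to 2.35. In let-7f-5p and let-7i-5p E17 lay below all late postnatal samples (53711 against 69793 to 74953 RPM, and 15604 against 17664 to 20074 RPM), and in let-7e-5p, with 28778, 40880.2 and 29345 RPM and then 12014, 16325 and 22048 RPM, above them (edgeR adjusted p = 0.227, 0.289 and 0.213).

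The miR-181 family had its highest level at E10. miR-181d-5p was the 1 member of 4 that was called, with 16947, 2732 and 1833 RPM in embryonic and 1058, 1129 and 602 RPM in late postnatal samples (log2 fold −2.39 ± 0.75 SE, edgeR adjusted p = 0.0349). Without E10 the log2 fold was −1.22 with an adjusted p of 0.064, and without P7, P14 and P28 the adjusted p was 0.0983, 0.104 and 0.132 (log2 fold −1.73 without P28). Of all features, 42.2% were called and 52.9% did not overlap. None of these 4 overlapped between the groups, and miR-181b-5p passed without E13 or E17 and miR-181c-5p without E13. In the miR-30 family, none of the 3 members with a sequence was called, against 42.2% of all features (edgeR adjusted p from 0.447 to 0.83).

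Of the miR-99, miR-100 and miR-125 group, miR-99b-5p alone of the 4 tested was called, where 42.2% of all features were called. It had 11260.4, 4509.6 and 4189 RPM and then 1353, 1953 and 1514 RPM (log2 fold −1.69 ± 0.46 SE, edgeR adjusted p = 0.0242). The call was lost without P7, P14 or P28 (adjusted p = 0.135, 0.0934 and 0.116). miR-99a-5p, also on the list, had no sequence in the reference and was not counted under its name. Whether the primer labelled miR-99b stands for it was not settled. The sequence of this primer differs from RefSeq's miR-99b-5p. Tags that fitted it had 5866, 23094 and 36140.2 RPM and then 18779, 11059 and 10294 RPM and overlapped between the groups (log2 fold −0.71 ± 0.84 SE, edgeR adjusted p = 0.497). These levels came mainly from run 1 after E10, with 59603 RPM in run 1 and 2675 RPM in run 2 at E13, 82975 and 5218 RPM at E17, and 53592 and 1865 RPM at P7.

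The imprinted Dlk1-Dio3 region holds a large miRNA cluster that is active in neurons. Of 39 listed and tested, 12 were called higher, 2 lower, and 25 were not called (median log2 fold 0.82), so that 35.9% were called, against 42.2% of all features. With total clean reads alone, 20 had a positive and 19 a negative log2 fold, against 27 and 12 with TMM. miR-485-5p had 266, 626 and 285 RPM in embryonic and 1116, 1699 and 2112 RPM in late postnatal samples (log2 fold 2.34 ± 0.53 SE, edgeR adjusted p = 0.0128). miR-409a-5p had 165, 236 and 110.5 RPM and then 218.6, 407 and 766 RPM, so P7 lay below E13 (log2 fold 1.75 ± 0.55 SE, edgeR adjusted p = 0.035), and its call was kept only without P7, with adjusted p-values of 0.0502 to 0.0862 in the other 5 fits and 0.104 with total clean reads alone. miR-494-3p fell, with 267, 897 and 85.4 RPM and then 48.7, 42.5 and 34.9 RPM (log2 fold −2.81 ± 0.72 SE, edgeR adjusted p = 0.0195), −1.80 without E13. Its adjusted p was 0.0663, 0.0896 and 0.0869 without P7, P14 and P28. miR-127-3p, which lies antisense to the imprinted gene Rtl1, had 7931, 5004 and 1768 RPM and then 7572, 11048 and 8880.1 RPM. It overlapped between the groups but was called higher (log2 fold 1.37 ± 0.45 SE, edgeR adjusted p = 0.0411), and the adjusted p was 0.0954, 0.059, 0.0919 and 0.0619 without E13, P7, P14 and P28. The sum over the region was 24642 RPM at E10, 25813 at E13 and only 7551 RPM at E17, against 29407 to 37190 RPM in late postnatal samples.

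**Figure D3:**
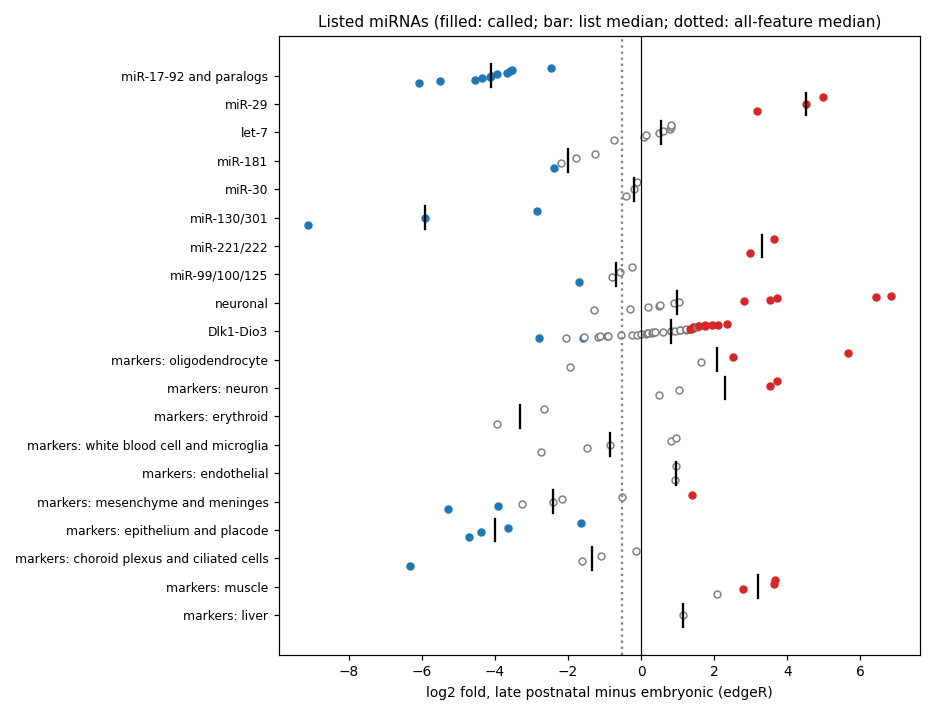
log2 folds (late postnatal minus embryonic, edgeR) of the tested miRNAs of each list, one circle per miRNA, filled where called (red higher, blue lower) and open where not. Black bars give the list medians and the dotted line the median of all features. All 11 miRNAs of miR-17-92 and paralogs lie left of −2 and the 3 of miR-29 lie right of 3, whereas Dlk1-Dio3 spans −2.81 to 2.34.

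Where both arms of a hairpin were tested, they moved alike when both were called. Of 68 hairpins with a member arm and both arms tested, both arms were called in 27, and in all 27 the sign was the same. Over all hairpins it was the same in 49 of 49. miR-672 was among the 17 member hairpins with 1 called arm, with a log2 fold of −2.06 for the called 5′ arm and 0.94 for the 3′ arm.

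miR-376b-3p, a miRNA of the Dlk1-Dio3 region at chr6:134558913-134558933 (GRCr8, plus strand), did not differ in its unchanged form beyond the spread (log2 fold −0.11 ± 0.53 SE, edgeR adjusted p = 0.875). Its reads also occurred with the change A6G, counted from the 5′ end, within the seed. Adenosine deaminases turn adenosine into inosine, which is read as guanosine. The 2 forms as tags are shown with the changed base in capitals.

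miR-376b-3p unchanged: atcatAgaggaacatccactt
miR-376b-3p changed: atcatGgaggaacatccactt

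Changed reads were 166 of 2764 at E10 (6.01%, 95% Wilson interval 5.18 to 6.95), 230 of 3490 at E13 (6.59%, 5.81 to 7.46) and 389 of 1802 at E17 (21.6%, 19.7 to 23.5). They were 5498 of 7766 at P7 (70.8%, 69.8 to 71.8), 5554 of 7318 at P14 (75.9%, 74.9 to 76.9) and 6983 of 8000 at P28 (87.3%, 86.5 to 88.0). E17 exceeded E10 and E13 but remained far below P7, and the intervals, which cover counting error only, did not overlap between E17 and any other sample. The means were 11.4% ± 8.83 (SD, n = 3) and 78.0% ± 8.44 (SD, n = 3), a difference of 66.6 percentage points (two-sided exact permutation test, p = 0.1, the smallest that 3 against 3 samples allow). Run 1 alone gave 66.2 and run 2 alone 65.9 percentage points. The change is in the seed, so the 2 forms differ in the bases that pair with targets.

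**Figure D4:**
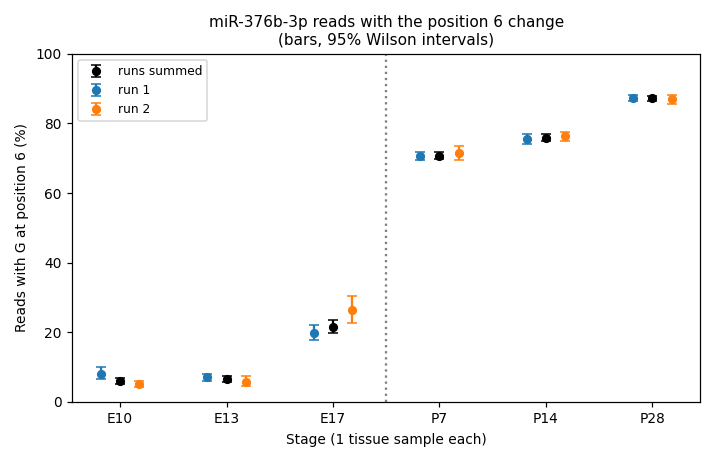
Share of miR-376b-3p reads with G in place of A at position 6, in percent, for the 6 samples, with the summed runs in black, run 1 in blue and run 2 in orange. Bars are 95% Wilson intervals. The embryonic samples lie between 6.01% and 21.6% and the late postnatal ones between 70.8% and 87.3% in the summed runs.

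The comparison was also made on the tags themselves, without any annotation. The 6 samples held 3129208 unique tags, of which 269786 occurred in both periods, and these held 95.2% of embryonic and 98.4% of late postnatal reads. Of 22594 tags with at least 10 reads in at least 3 samples, 2369 (10.5%) were called, 1114 higher and 1255 lower (4.93% and 5.55%). The groups did not overlap for 38.0% of the tags tested. The tags called higher held 0.365%, 0.604% and 1.5% of the reads at E10, E13 and E17, and 11.5%, 14.2% and 16.3% at P7, P14 and P28. Those called lower held 11.2%, 7.17% and 2.60% before birth and 0.37% to 0.473% later, both being values that the calls themselves used. Of 4922 tags that fitted a miRNA or candidate, 713 (14.5%) were called, and of 17672 that fitted none, 1656 (9.37%).

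The 4 tags called in each direction with the highest mean level are shown with the miRNA seed in capitals. The first 4 rose and the last 4 fell.

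miR-128-3p tag of 21 nt: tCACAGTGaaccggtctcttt
miR-29a-3p tag of 22 nt: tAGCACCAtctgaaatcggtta
miR-128-3p tag of 20 nt: tCACAGTGaaccggtctctt
miR-128-3p tag of 19 nt: tCACAGTGaaccggtctct
miR-199a-3p tag of 22 nt: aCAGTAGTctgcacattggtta
miR-181d-5p tag of 24 nt: aACATTCAttgttgtcggtgggtt
miR-181b-5p tag of 24 nt: aACATTCAttgctgtcggtgggtt
miR-92a-3p tag of 20 nt: tATTGCACttgtcccggcct

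The full miR-128-3p tag had 1059.9, 2443 and 8538 RPM at the embryonic stages and 66480, 74520 and 67452 RPM at the late ones (log2 fold 4.12 ± 0.77 SE, edgeR adjusted p = 0.0323). Its versions shorter by 1 and 2 bases at the 3′ end rose with it, by log2 folds of 4.24 and 4.40. The 24 nt tags of miR-181d-5p and miR-181b-5p were mainly those of E10, with 9443 and 9619 RPM there and 1033 RPM or less in every other sample. The miR-199a-3p tag overlapped between the groups, since E17 had 124.3 RPM, below the late postnatal 280.1 to 554 RPM. No tag was called without E13, P7, P14 or P28, where 4791, 4027, 3891 and 3728 tags had an unadjusted p under 0.05, and 1016 were called without E10 and 3880 without E17. DESeq2 called 4839 tags on all 6 samples.

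Tag lengths shifted between the periods in some classes and overlapped in others. Tags of 21 nt held 8.78%, 14.2% and 11.2% of the reads at E10, E13 and E17 and 16.0%, 16.5% and 16.3% at P7, P14 and P28. Tags of 24 nt held 8.27%, 8.22% and 4.72% and then 3.76%, 3.74% and 4.23%, and those of 25 nt 4.78%, 2.23% and 0.913% and then 0.812%, 0.826% and 0.806%. These were 3 of the 8 lengths from 18 to 25 nt, and 7 of the 22 up to 39 nt, at which the groups did not overlap, each with the smallest p that the exact permutation test allows (p = 0.1). Among the 7 were 37, 38 and 39 nt, which held at most 0.000207% of the reads in any sample and occurred only in run 2. Tags of 22 nt held 41.9%, 30.6% and 34.7% of the reads at E10, E13 and E17 and 33.1%, 33.3% and 36.7% at P7, P14 and P28. The groups overlapped, with means of 35.7% ± 5.74 (SD, n = 3) and 34.4% ± 2.04 (SD, n = 3) (exact permutation test, p = 0.8). The share of 26 to 30 nt fell from 3.44% at E10 to 0.72% at E17 and lay between 0.965% and 1.11% in late postnatal samples (exact permutation test, p = 0.4). Reads of the members that were shortened at the 3′ end made up 37.8% ± 12.8 (SD, n = 3) in embryonic and 40.2% ± 2.87 (SD, n = 3) in late postnatal samples (exact permutation test, p = 1). With each miRNA weighted equally, these shares were 48.3% ± 16.5 and 60.4% ± 1.42 (SD, n = 3 each, exact permutation test, p = 0.1), and E10 had 29.3%, where E13 and E17 had 58.3% and 57.4%.

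Marker miRNAs of other cell types moved with several of these groups, and their part in the results was not tested. Mesenchyme and meninges markers, of which 7 of 9 were tested, summed to 28930 and 39684.5 RPM at E10 and E13, 576 at E17, and 2690.0 to 3249 RPM in late postnatal samples. The main part was miR-199a-3p, with 27365, 38393 and 355 RPM before birth and 1816, 1689 and 1040.1 RPM later, and its log2 fold of −3.25 ± 1.15 SE was not called (edgeR adjusted p = 0.0521). It passed in 8 of 17 alternatives, among them DESeq2 (adjusted p = 0.00739), total clean reads alone (0.0342), run 1 alone (0.0393), run 2 alone (0.0498) and without E17 (0.00154, log2 fold −3.72). It was −2.65 without E13 (adjusted p = 0.125) and −1.81 with the replicate block (adjusted p = 0.165). Per the methods of the study, the meninges were removed at dissection. E17 was its lowest sample, and against E17 alone its log2 fold was 1.71 (edgeR adjusted p = 0.0613). Of the 7 tested, miR-199a-5p and miR-214-3p were called lower (log2 folds −3.92 and −5.29, edgeR adjusted p = 0.0343 and 0.0245), both also lowest at E17, and miR-143-3p was called higher (log2 fold 1.41, edgeR adjusted p = 0.0489). The adjusted p of miR-199a-5p and miR-214-3p lay between 0.0586 and 0.113 without E13, P7, P14 or P28, with a log2 fold of −4.45 for miR-214-3p without E13, and that of miR-143-3p between 0.0647 and 0.104 without E13, E17, P14 or P28. The Hox-linked miR-196a-5p and miR-196b-5p of that list had at most 3.50 RPM in any sample. Epithelium and placode markers, with 4 of the 10 listed tested and all 4 called lower, against 25.6% of all features, summed to 23.996 to 233 RPM in embryonic and 13.5 to 18.01 RPM in late postnatal samples, and miR-205 had 0 to 0.338 RPM after birth. The calls of all 4 were lost without P7, P14 or P28 (edgeR adjusted p between 0.0742 and 0.161). Without E13 the log2 fold of miR-200c-3p went from −3.64 to −2.04, that of miR-182 from −4.72 to −2.62 and that of miR-183-5p from −4.37 to −2.30, and the adjusted p of the first 2 was 0.0504 and 0.0611. miR-203a-3p had an adjusted p of 0.0566 without E10, and miR-182 a log2 fold of −4.12 without P28.

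Erythroid markers summed to 1256 RPM at E10 and 30.1 to 90.9 RPM in the other 5 samples, and neither of the 2 was called. Choroid plexus and ciliated cell markers summed to 6497 RPM at E10, 176 to 555 RPM at E13 and E17 and 418 to 625 RPM later, with 1 of 4 tested called. Neuron markers summed to 20939 to 49369 RPM in embryonic and 166436 to 173361 RPM in late postnatal samples. The difference was mainly miR-128-3p, with 134305 to 148662 RPM in late postnatal samples, while miR-124 overlapped between the groups. Of the 4 neuron markers, 2 were called higher and none lower (50.0%), where 16.6% of all features were called higher and 42.2% in either direction. Oligodendrocyte markers summed to 77.6 to 1247 RPM and 1331 to 8958 RPM, also with 2 of 4 (50.0%) called higher. The muscle list, with 3 of 4 (75.0%) called higher against 16.6% of all features, summed to 16.9 to 471 RPM before birth and 1096 to 2143 RPM later. Most of it was miR-206-3p, with 55.2, 344 and 11.98 RPM and then 921, 1879 and 813 RPM (log2 fold 3.65 ± 1.04 SE, edgeR adjusted p = 0.026). Its log2 fold was 5.47 without E13, and its adjusted p was 0.079 without P14, 0.0532 without P28 and 0.0504 with total clean reads alone. miR-1-3p had 29.8, 126.5 and 4.79 RPM and then 173, 261 and 334 RPM (log2 fold 2.77 ± 0.92 SE, edgeR adjusted p = 0.0414), or 4.24 without E13, and its adjusted p was 0.0652 to 0.0954 without E10, P7, P14 or P28. miR-133a-3p and miR-133b-3p, also muscle miRNAs, had at most 3.42 RPM. miR-133b-3p was called higher (log2 fold 3.68, edgeR adjusted p = 0.00663; 4.34 without E13), and miR-133a-3p was not (log2 fold 2.09, edgeR adjusted p = 0.077; 3.15 without E10 and 2.70 without P7). Markers of white blood cells and microglia (5 of 6 tested), endothelium (2) and liver (1) had no called member.

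**Figure D5:**
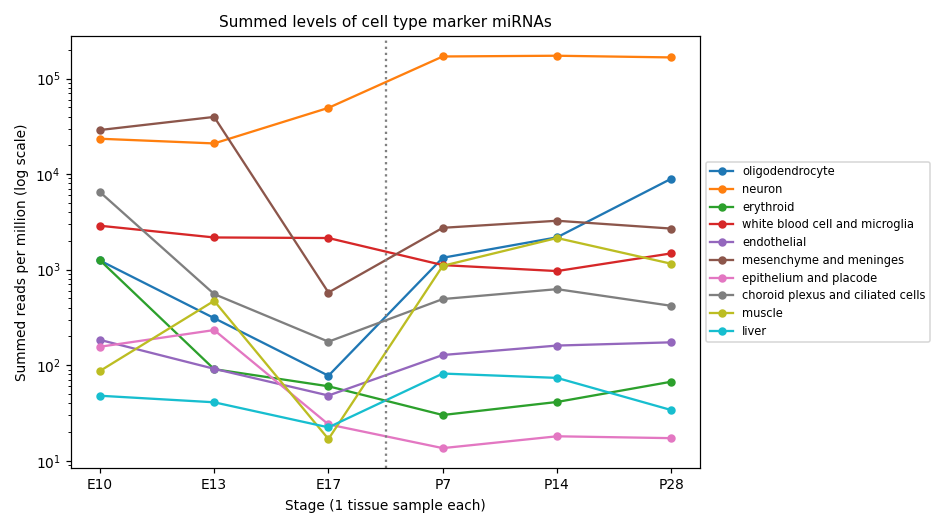
Summed levels in RPM (log scale) of the marker miRNAs of 10 cell types in the 6 samples, 1 line per list, with E10, E13 and E17 to the left of the dotted line. Neuron markers rise from 20939 RPM at E13 to 173361 RPM at P14, of which 148662 RPM are miR-128-3p. Mesenchyme markers drop from 39684.5 RPM at E13 to 576 RPM at E17, and erythroid and choroid plexus markers are highest at E10.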

How the data were processed

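Small RNA was sequenced from 9 tissue samples, each in 2 runs. Per the labels and file headers, the authors cleaned the reads and deposited counts of each unique tag per library, neither normalized nor mapped. The alignment to the rat genome described in the study's methods (SOAP, rn4) is no part of these files. Tags were 18 to 30 nt long in run 1 and 18 to 39 nt in run 2.

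Here, tags of at least 18 nt were counted for a mature sequence when both were identical where they overlapped. The 5′ ends could differ by up to 3 nt, and a tag could run up to 3 nt beyond the mature 3′ end. Tags that fitted several miRNAs (469 of 38016, with 2.12% of fitted reads) were counted for each. Mature sequences were those of RefSeq (GRCr8), 692 distinct, plus 2 primer sequences and 99 candidates of the study. Of 30 primer names, 26 assembled to a sequence identical to RefSeq and 2 were matched by start and name. Of 160 names in the list of changes, which was held only in part, 135 were matched to RefSeq and 1 to its primer sequence. The perinatal samples P0 and P3 entered only 1 alternative.

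Samples were grouped by the labelled stage. Runs were summed and the 3 against 3 samples compared with edgeR 4.0.16 in R 4.3.3 (glmQLFit and glmQLFTest, TMM on total clean reads, at least 10 reads in at least 3 samples, Benjamini-Hochberg). DESeq2 1.42.0 and limma 3.58.1 gave alternatives, and scipy 1.17.1 in Python 3.11.15 the exact two-sided permutation tests and Wilson intervals. The biological coefficient of variation was 0.609. The tag counting and the edgeR fits were tested on simulated data. Most changes set in tags were not recovered there, and the smaller changes set in miRNAs were often missed. Named were all miRNAs with a real-time primer, and of the other features the 8 largest rises and falls that were called, did not overlap and reached 100 RPM in the higher group, with at most 4 examples of each list; for tags, the 4 called in each direction with the highest mean. Members and lists were chosen with earlier results of these data known. miR-15b, miR-195, miR-322 and miR-497 were named after their values were seen. Overlap with a gene is from RefSeq gene spans, without strand.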

Additional observations from a re-analysis of the deposited data

How the results depend on the processing

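The count of 221 called miRNAs and candidates was 115 with identical tags only, where 367 features were tested, and 52 higher and 87 lower (1.4e+02 in all) with E17 as the only embryonic sample, where fewer samples entered. Leaving out 1 sample gave 89 (without P14) to 224 calls (without E17). It was 234 with the replicate block (12 libraries, run as a term, sample as a correlated block; 116 higher and 118 lower, 194 shared with the calls at the threshold), and 266 with DESeq2. For tags, 2369 calls became 4839 with DESeq2, 4131 with the replicate block and 959 with at least 100 reads; edgeR called 0 with at least 3 reads (15525 at an unadjusted p under 0.05), 0 with run 2 alone (3495) and 0 with E17 as the only embryonic sample (4125), and leaving out 1 sample gave 0 to 3880. The cause was not tested. The replicates of the labels are runs of 1 sample, so the run number pairs no animals.

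The difference in the 22 nt share turned from −1.38 to 1.97 percentage points over unique tags. That in the 3′ shortened share turned from 2.31 to −4.23 with run 1 alone and was 12.1 with each miRNA weighted equally. Of 780 alternative values for 46 named miRNAs, with E10 and E13 as the embryonic samples and without E17 counted once as the same fit, 691 kept their direction and side of the threshold, 68 lost the call, 14 gained it and 7 changed sign, all in miRNAs not called. DESeq2 gave no adjusted p for miR-29b-3p and miR-449a-5p. The replicate block changed the call of miR-16-5p and miR-137-3p alone among the named miRNAs. Run 1 alone ended the call of miR-16-5p, miR-221-3p, miR-3559-5p, miR-409a-5p and miR-708-5p, run 2 alone that of miR-672-5p, and identical tags only that of miR-219a-2-3p, miR-22-3p and miR-29b-3p. Without the minimum number of reads the calls of miR-16-5p and miR-672-5p ended, and with only tags seen in both runs that of miR-672-5p. With E17 as the only embryonic sample, the calls of miR-29a-3p, miR-29b-3p, miR-29c-3p, miR-132-5p, miR-132-3p, miR-212-5p, miR-378a-3p, miR-409a-5p, miR-494-3p, miR-449a-5p and miR-1298 ended, the miR-99b primer sequence passed (−1.81), and miR-124 had a log2 fold of −0.36 and miR-199a-3p 1.71. miR-134-5p had −0.30 with total clean reads, −0.64 with identical tags only, −0.018 with run 2 alone, −0.016 with E10 and E13 as the embryonic samples, and −0.016 to 0.88 when 1 sample was left out. The primer sequence labelled miR-99b had 0.50 with E10 and E13 as the embryonic samples, and −1.24 to 0.50 when 1 sample was left out. With 1 tissue sample at each of the 6 stages compared, the spread between animals within these stages was not measured.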
